A study of Mus musculus with 6 samples.

Results

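Among the genes of the major histocompatibility complex (MHC) and its antigen presentation machinery, 5 of 10 tested class II genes fell in CXCL12-deficient marrow stromal sorts (edgeR). Of these, H2-DMb2 passed the filter on low counts through the controls. The other 5 had lower means that did not pass the test. Of 22 tested class I genes 1 rose, and most of the others had higher means that did not pass. The members are the 30 entries of the deposited count table whose symbol starts with H2-, plus 10 genes named individually in the rule: B2m, Tap1, Tap2, Tapbp, Cd74, Ciita, Nlrc5, Psmb8, Psmb9 and Psmb10. That gives 40 members of 17128 genes, of which 27 belong to the class I system and 11 to the class II system. The remaining pair, H2-Ke2 and H2-Ke6, carry an H2- symbol but encode a prefoldin subunit and a steroid dehydrogenase.

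MHC class I molecules are pairs of a heavy chain and beta-2-microglobulin (B2m) that show peptides from inside the cell to CD8+ T cells, and nearly all nucleated cells carry them. Proteasomes cut the peptides, the TAP transporter moves them into the endoplasmic reticulum, tapasin (Tapbp) helps load them, and NLRC5 switches on the class I genes. MHC class II molecules are pairs of an alpha and a beta chain that show peptides from engulfed material to CD4+ T cells. The invariant chain (Cd74) guards their groove, H2-DM exchanges the peptides, H2-O restrains H2-DM, and CIITA switches on the class II genes, above all in B cells, dendritic cells and macrophages.

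RNA was sequenced from cells sorted out of collagenase-digested femurs of mice at postnatal day 21. The 3 control libraries held GFP+ cells of Cxcl12(GFP/fl); R26R(tdTomato/+) mice. The 3 CXCL12-deficient libraries held GFP+ tdTomato+ cells of Cxcl12(GFP/fl); Col2a1-cre; R26R(tdTomato/+) mice. All mice thus carried GFP in place of 1 Cxcl12 allele and a floxed other allele. Col2a1-cre is active in cartilage-forming cells and marks their descendants. The cre, the loss of the floxed allele and the tdTomato gate change together between the groups and cannot be told apart.

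Total counts lay between 20133299 and 28009257 per library. Levels are given as CPM, the reads of a gene scaled to the library's size. Cxcl12, the targeted gene, was at 3747 ± 112 CPM in the control and 1289 ± 130 CPM in the CXCL12-deficient group (SD, n = 3 libraries), and fell by 1.54 on the log2 scale (SE 0.17; edgeR adjusted p = 0.0053). All 10 marker genes of CXCL12-abundant reticular stromal cells were detected in each library. Without Cxcl12 itself, the other 9 summed to 3782 to 4494 CPM in the control and 6500 to 8043 CPM in the CXCL12-deficient group. Of these 9 genes 3 rose (Adipoq, Ebf3 and Cxcl14), where 0.639% of all tested genes were called higher. Genes of blood cells and endothelium were also detected. All 10 neutrophil genes fell, among them Mpo and Ltf, and their summed level was 14288 to 19911 CPM in the controls and 2286 to 6681 CPM in CXCL12-deficient libraries. Of 8 endothelial genes 5 fell (Pecam1, Cdh5, Emcn, Esam and Sox17), with summed levels of 69.9 to 116 CPM against 11.8 to 23.4 CPM. Sox17, with 12, 0 and 0 reads in CXCL12-deficient libraries, passed the filter on low counts through the controls, so no median is given here. Of 7 tested T and NK cell genes 1 fell (Nkg7), where 3.94% of all tested genes were called lower. Cd3e, Cd3d, Cd3g and Klrb1c also passed the filter through the controls, so no median is given for this list. Of 6 erythroid genes 0 were called by edgeR (0 at an unadjusted p below 0.05), by DESeq2 or by limma-voom (0 each). In such sorted bulk samples, fewer cells of a type and less RNA per cell cannot be told apart. Whether the libraries come from separate animals is not in the labels, so the p-values cover the library-to-library spread, which may be technical.

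Of the 40 members, 34 passed the filter on low counts. Of these 34, 5 fell and 1 rose (adjusted p below 0.05, robust quasi-likelihood test of edgeR, adjusted over all genes). Of all 13926 tested genes, 4.57% were called, 3.94% lower and 0.639% higher. All 5 lower members belong to class II, which had 10 tested members, and the higher member is 1 of 22 in class I. Among the lower members, H2-DMb2 passed the filter through the control libraries. With a filter of 5 CPM in 3 libraries, 4 members were called lower. The 10 tested class II members had log2 fold changes below 0. H2-DMb2 is counted among them, so no median is given for class II. The untested H2-Eb2, with reads only in CXCL12-deficient libraries, is not counted. The class II counts of sign and of overlap thus rest in part on the filter. Of the 22 class I members 20 lay above 0, with a median of 0.57. The median of all genes was 0.03. The control and CXCL12-deficient libraries did not overlap at 8 of 10 class II and 3 of 22 class I members, against 25.6% of all tested genes.

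**Figure D1:**
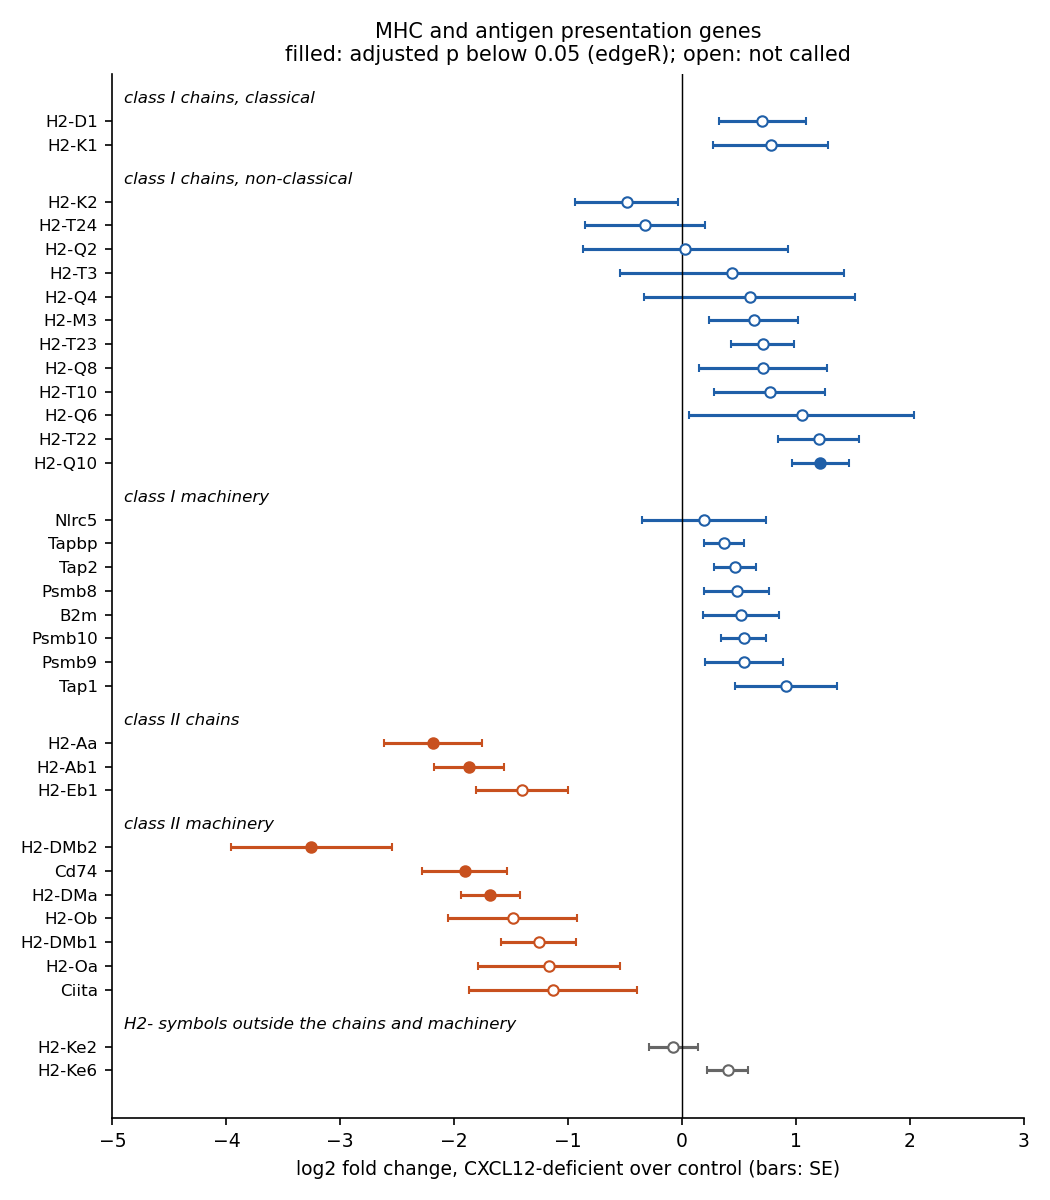
Log2 fold change of each tested member, CXCL12-deficient over control (x axis; points are edgeR estimates, bars are SE, n = 3 libraries a group), ordered by role. Filled points passed an adjusted p of 0.05, which are 5 class II members on the left and H2-Q10 on the right.

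The classical class II chains were lower in every CXCL12-deficient library. H2-Ab1, the beta chain of the A molecule, lies on chromosome 17 from 34257689 to 34269419 (GRCm38, plus strand). It had 69.6, 48.1 and 118 CPM in control replicates 1, 2 and 3, and 23.1, 18.8 and 22.6 CPM in CXCL12-deficient replicates 1, 2 and 3. The groups did not overlap, and the CXCL12-deficient libraries lay close together. The gene fell by 1.87 on the log2 scale (SE 0.31, adjusted p = 0.014), or 3.66-fold. It was the only member called in all 6 refits that left out 1 library, with adjusted p from 0.020 to 0.046.

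H2-Aa, the alpha chain of the same molecule, had 28.7, 22.3 and 47.4 CPM in the controls and 10.95, 3.53 and 7.06 CPM in CXCL12-deficient libraries. It fell by 2.19 (SE 0.43, adjusted p = 0.024), or 4.56-fold. H2-Eb1, the beta chain of the E molecule, had 22.1, 16.2 and 36.4 CPM against 11.8, 4.84 and 11.5 CPM. Its groups did not overlap either, and its log2 fold change of -1.40 ± 0.41 missed the threshold with edgeR (adjusted p = 0.097) and passed it with DESeq2 (adjusted p = 0.0092). Control replicate 3 was the highest library for all 3 chains. H2-Eb2 did not pass the filter: it had 0 reads in the 3 controls and in CXCL12-deficient replicate 3, and 6 and 11 reads in the other two CXCL12-deficient libraries.

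Of the 7 class II machinery genes 3 fell. Cd74, the invariant chain and the most abundant class II member, had 274, 328 and 597 CPM in the controls and 161, 67.9 and 90.6 CPM in CXCL12-deficient libraries. The lowest control thus exceeded the highest CXCL12-deficient library, and the gene fell by 1.91 (SE 0.37, adjusted p = 0.024), or 3.75-fold. H2-DMa, the alpha chain of the peptide exchanger, was the steadiest within groups, with 18.2, 20.0 and 18.7 CPM against 6.79, 6.45 and 4.48 CPM. It fell by 1.68 (SE 0.26, adjusted p = 0.011), and its exons overlap those of Brd2 in GENCODE. H2-DMb2, a beta chain of the exchanger, had 1.82, 3.46 and 5.10 CPM against 0.541, 0.349 and 0.178 CPM and fell by 3.26 (SE 0.71, adjusted p = 0.036). These last values are only 13, 8 and 4 reads, and the gene passed the filter through the control libraries. In the GENCODE M21 transcripts, 21.2% of its 50-base words also occur in H2-DMb1, so reads of this gene pair can be confused.

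The other 4 class II machinery genes were not called by edgeR. H2-DMb1, the second beta chain of the exchanger, had 11.8, 9.06 and 12.6 CPM in the controls and 6.21, 4.36 and 3.42 CPM in CXCL12-deficient libraries (log2 fold change -1.26 ± 0.33, adjusted p = 0.070). It was called by DESeq2 (adjusted p = 0.0077) and by limma on the deposited log2 values (adjusted p = 0.047). H2-Oa had 1.75, 1.59 and 2.83 CPM against 0.583, 1.18 and 0.977 CPM. H2-Ob had 4.11, 7.64 and 14.2 CPM against 3.58, 4.32 and 1.33 CPM, so its groups overlapped. Ciita, the class II transactivator, was near the lower limit with 2.11, 0.935 and 4.25 CPM against 0.541, 1.70 and 1.07 CPM, between 13 and 90 reads a library. The adjusted p of H2-Oa, H2-Ob and Ciita was 0.36, 0.19 and 0.47.

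**Figure D2:**
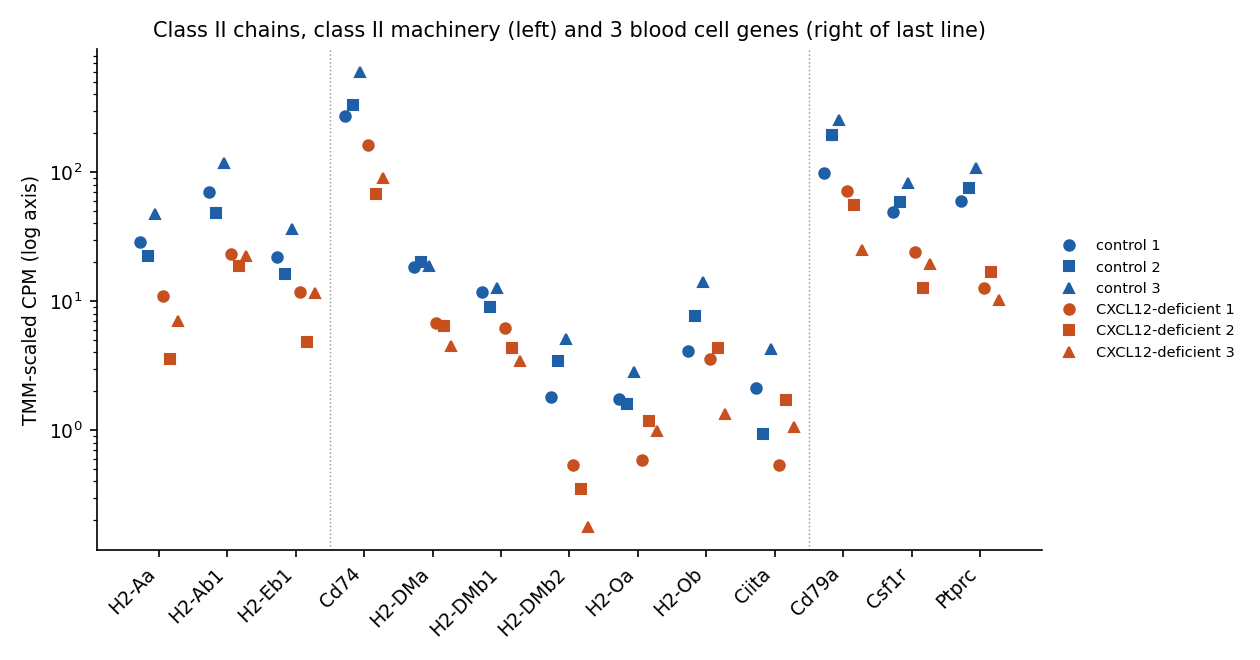
Level of each tested class II member and of Cd79a, Csf1r and Ptprc in each library (y axis: TMM-scaled CPM, log axis; blue control, orange CXCL12-deficient; each point is 1 library). Controls lie above CXCL12-deficient libraries for all genes shown but H2-Ob and Ciita, where the groups overlap.

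How many class II members were called depended on which libraries entered the fit. Without control replicate 2, and again without control replicate 3, H2-Ab1 was the only member called lower. Without CXCL12-deficient replicate 3, H2-Ab1 and H2-DMa were called, and without CXCL12-deficient replicate 2 also H2-Aa. H2-DMa, H2-Aa, Cd74 and H2-DMb2 were called in 4, 3, 2 and 2 of the 6 refits.

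Marker genes of cells that present antigen by class II were among those that fell, as were the neutrophil and endothelial genes given above. Of all tested genes, 3.94% were called lower. Of 10 B lineage genes 3 fell (Cd79a, Rag1 and Blnk), and all 10 had negative log2 fold changes, with a median of -1.87. Their summed level was 347 to 990 CPM in the controls and 89.6 to 257 CPM in CXCL12-deficient libraries. Of 12 monocyte and macrophage genes 6 fell (Ptprc, Csf1r, Lyz2, Itgam, Cd14 and Ly86), and the summed level was 2143 to 3346 CPM against 497 to 926 CPM. Most of this sum was Lyz2 alone. It had 1732, 2872 and 2378 CPM in the controls and 639, 351 and 306 CPM in CXCL12-deficient libraries. The 4 macrophage genes with positive log2 fold changes, C1qa, C1qb, C1qc and Mrc1, were not called by edgeR. Of 9 tested dendritic cell genes 1 fell, the lectin gene Cd209a, which had 6.03, 6.42 and 6.66 CPM in the controls and 0, 3 and 0 reads in CXCL12-deficient libraries. It passed the filter through the controls alone. The 10 listed dendritic cell genes summed to 57.3 to 111 CPM against 30.6 to 42.7 CPM. None of the B lineage, monocyte and macrophage or dendritic cell genes was at 0 in all 3 CXCL12-deficient libraries. The part of these cells in the class II result was not tested.

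Set against these marker genes within a library, a comparison made after their values were seen, Cd74 gave different pictures by gene. The log2 ratio of Cd74 to each of the 10 B lineage genes overlapped between the groups. Of the 12 monocyte and macrophage genes, the ratio overlapped for 5, was higher in all controls for 6 (Emr1, Cd68, Mrc1, C1qa, C1qb and C1qc) and lower in all controls for 1 (Itgam). The dendritic cell genes with reads in every library numbered 5, and the ratio overlapped for 4 and was higher in all controls for Zbtb46. The log2 ratio of Cd74 to the B cell receptor gene Cd79a was 1.15 ± 0.36 in the controls and 1.11 ± 0.79 in the CXCL12-deficient group (SD, n = 3). The ratio to Csf1r, the receptor gene of the macrophage growth factor, was 2.61 ± 0.22 and 2.47 ± 0.25. The ratio to Ptprc, the pan-leukocyte gene, was 2.27 ± 0.19 and 2.94 ± 0.85. In these 3 cases the ranges of the groups overlapped. The ratio to C1qc, a complement gene of tissue macrophages, was 3.59, 3.50 and 4.45 in the controls and 1.53, 1.28 and 0.80 in the CXCL12-deficient group, with no overlap. These are descriptions of the libraries, with no test.

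**Figure D3:**
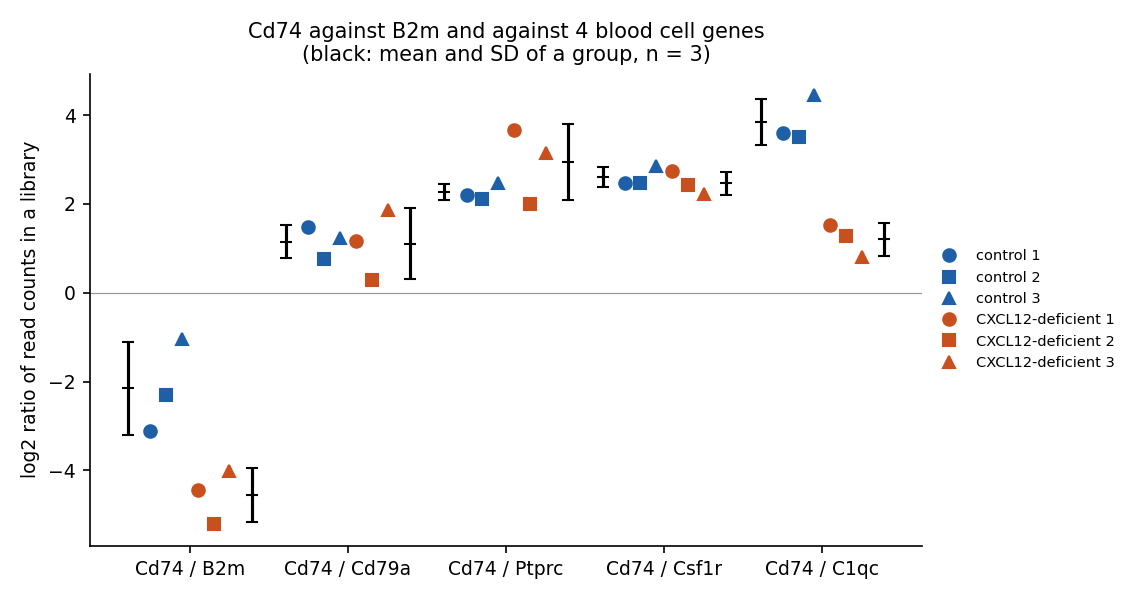
Log2 ratio of the read counts of Cd74 to those of B2m, Cd79a, Ptprc, Csf1r and C1qc in each library (y axis; points are libraries, black marks are group means with SD, n = 3). Of the 5 ratios shown, the groups are apart for those to B2m and C1qc.

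In contrast to the class II chains, the classical class I heavy chains were abundant in every library. Their levels also spread widely within both groups. H2-D1, on chromosome 17 from 35262730 to 35267499 (GRCm38, plus strand), had 5929, 3587 and 2704 CPM in the controls and 7854, 8588 and 3468 CPM in CXCL12-deficient libraries. H2-K1 had 3328, 1508 and 1202 CPM against 3930, 5118 and 1308 CPM. CXCL12-deficient replicate 3 lay within the range of the controls for both genes. The log2 fold changes were 0.70 ± 0.38 for H2-D1 and 0.78 ± 0.51 for H2-K1 (adjusted p = 0.37 and 0.47). Their 95% intervals, from -0.16 to 1.57 and from -0.37 to 1.92, span no change as well as a rise of more than 2-fold.

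B2m, the shared light chain, had 2377, 1622 and 1235 CPM in the controls and 3504, 2521 and 1470 CPM in CXCL12-deficient libraries (log2 fold change 0.52 ± 0.34, 95% interval -0.24 to 1.28, adjusted p = 0.47). Per kilobase of exon, with lengths from GENCODE M21, the control means were 2029 CPM for B2m, 1579 for H2-D1, 685 for H2-K1, 238 for Cd74 and 30.7 for H2-Ab1. In CXCL12-deficient libraries they were 2905, 2573, 1175, 63.5 and 8.37 CPM per kilobase. B2m had a higher mean than H2-D1 in both groups, and the order of B2m and H2-D1 within each library was not tested. Both exceeded the 2 class II genes by a wide margin in both groups.

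The difference between the systems was examined within libraries through 1 gene of each. The log2 ratio of Cd74 to B2m reads was -3.11, -2.30 and -1.05 in the controls and -4.44, -5.21 and -4.02 in CXCL12-deficient libraries. The means were -2.16 ± 1.04 and -4.56 ± 0.61 (SD, n = 3), a difference of -2.40. The groups did not overlap, and the exact two-sided permutation p was 0.1, the smallest that 3 against 3 libraries allow. The sum of the 19 class I heavy chain entries ran from 4157 to 9755 CPM in the controls and from 5070 to 14540 CPM in CXCL12-deficient libraries. The sum of the 4 class II chain entries ran from 86.7 to 202 CPM and from 27.7 to 46.1 CPM.

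H2-Q10 was the only class I member that edgeR called higher. It encodes a secreted class I chain known from liver and serum, and lies on chromosome 17 from 35470089 to 35474563. It had 75.0, 81.9 and 53.5 CPM in the controls and 216, 154 and 117 CPM in CXCL12-deficient libraries, with no overlap. The log2 fold change was 1.21 ± 0.25 (adjusted p = 0.029), or 2.32-fold, and it was called in 1 of the 6 refits, the one without CXCL12-deficient replicate 3. Reads of related chains can be confused here: 81% of the 50-base words of its GENCODE transcripts occur in no other gene, and 14% occur in H2-Q7. The table has no entry named H2-Q7.

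The other abundant non-classical chains were not called by edgeR. H2-T23, whose product Qa-1 is the ligand of inhibitory NKG2A receptors, had 122, 126 and 97.6 CPM against 218, 240 and 107 CPM (log2 fold change 0.71 ± 0.28, adjusted p = 0.21). H2-Q4 had 111, 30.1 and 24.9 CPM in the controls and 103, 135 and 12.3 CPM in CXCL12-deficient libraries. H2-Q6 had 99.4, 21.7 and 14.7 CPM against 104, 162 and 16.4 CPM. The highest library exceeded the lowest 11.02-fold at H2-Q4 and 10.96-fold at H2-Q6, so their log2 fold changes of 0.59 ± 0.93 and 1.05 ± 0.99 say little about the groups. H2-T22, named after its values were seen, separated the groups at a low level (4.28, 4.19 and 3.64 CPM against 11.4, 10.64 and 5.82 CPM) with an adjusted p of 0.10 by edgeR and 0.029 by DESeq2, and 31.2% of its words are shared with H2-T10.

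The remaining tested heavy chain entries, H2-K2, H2-M3, H2-Q2, H2-Q8, H2-T3, H2-T10 and H2-T24, had log2 fold changes between -0.49 and 0.77, and none was called. H2-M3, which presents formylated bacterial peptides, was the most abundant of them with H2-Q8, at 26.5 ± 5.61 CPM in the controls and 41.0 ± 20.8 CPM in CXCL12-deficient libraries. H2-Bl, H2-M10.2, H2-M5, H2-M9 and H2-Q1 did not pass the filter and had at most 11 reads in any library. H2-Ke2 and H2-Ke6, outside both systems, had log2 fold changes of -0.08 ± 0.22 and 0.40 ± 0.18 (adjusted p = 0.89 and 0.27).

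No gene of the class I machinery was called by edgeR (0 of 8, with 2 at an unadjusted p below 0.05), by DESeq2 or by limma-voom (0 each). All 8 had positive log2 fold changes, with a median of 0.50. Tap1, a subunit of the peptide transporter, had 196, 121 and 105 CPM in the controls and 266, 429 and 100 CPM in CXCL12-deficient libraries (log2 fold change 0.91 ± 0.45, adjusted p = 0.32). Its partner Tap2 had 197, 167 and 166 CPM against 245, 296 and 190 CPM (adjusted p = 0.22). Tapbp, encoding tapasin, was the only machinery gene without overlap, with 612, 563 and 554 CPM against 670, 910 and 658 CPM, but its difference of 0.37 ± 0.18 was not called (adjusted p = 0.29).

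The immunoproteasome subunits, which replace the constitutive catalytic subunits, had higher means in CXCL12-deficient libraries and were not called. Psmb8 had 202, 176 and 134 CPM in the controls and 317, 257 and 140 CPM in CXCL12-deficient libraries. Psmb9 had 51.8, 47.7 and 40.1 CPM against 88.2, 84.6 and 30.7 CPM. Psmb10 had 84.7, 109 and 87.5 CPM against 164, 141 and 104 CPM. Their log2 fold changes lay between 0.48 and 0.54, with adjusted p of 0.41, 0.45 and 0.17. Nlrc5, the class I transactivator, had 51.0, 18.5 and 17.7 CPM against 33.2, 54.4 and 12.3 CPM (log2 fold change 0.19 ± 0.55, adjusted p = 0.89). Without CXCL12-deficient replicate 3, the adjusted p of Psmb9 was 0.037 and that of H2-T23 0.023, and both were then called higher.

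**Figure D4:**
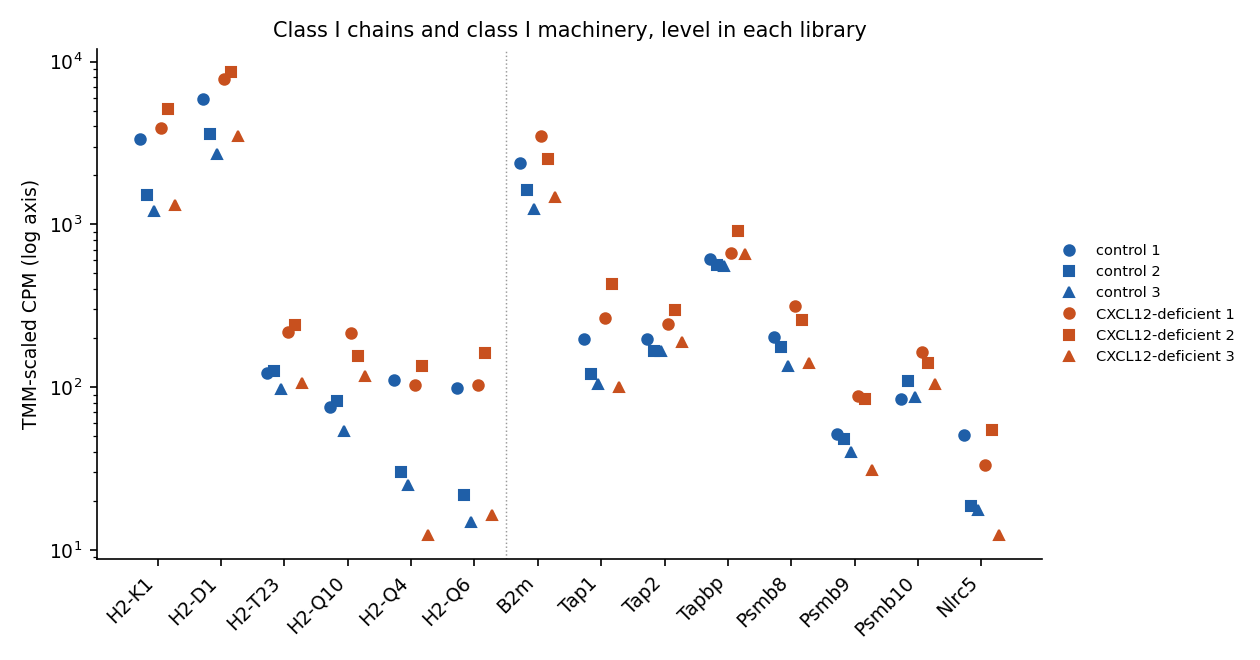
Level of 6 class I heavy chains and the 8 class I machinery genes in each library (y axis: TMM-scaled CPM, log axis; blue control, orange CXCL12-deficient; each point is 1 library). Control replicate 1 and CXCL12-deficient replicates 1 and 2 are the high libraries for most genes, while the groups are apart only for H2-Q10 and Tapbp.

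The class I members shared a pattern that crossed the groups. Control replicate 1 and CXCL12-deficient replicates 1 and 2 were the 3 highest libraries for 15 of the 22 tested class I members, among them H2-K1, H2-D1, B2m, Tap1, Psmb8, Psmb9 and Nlrc5. The same 3 libraries were the highest for 0 of 10 class II members and for 5.89% of all tested genes. Similar chains can share reads, so these members are not independent of each other, and the pattern was chosen after the values were seen. What distinguishes these 3 libraries was not tested.

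Along chromosome 17 a group of class I machinery genes lies among class II genes, and their log2 fold changes had opposite signs. Psmb9, Tap1, Psmb8 and Tap2 occupy 34181987 to 34216321 (GRCm38), between H2-DMb1, which ends at 34160230, and H2-Ob, which starts at 34238903. Their log2 fold changes ran from 0.46 to 0.91, and those of the class II genes on either side were -1.26 and -1.48. None of Psmb9, Tap1, Psmb8, Tap2, H2-DMb1 and H2-Ob was called by edgeR (adjusted p = 0.45, 0.32, 0.41, 0.22, 0.070 and 0.19). Among them the groups were apart only at H2-DMb1. Psmb9 and Tap1 overlap at their divergent starts, and with the strand setting of the counting not given in the sources used here, reads in the shared stretch cannot be assigned.

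**Figure D5:**
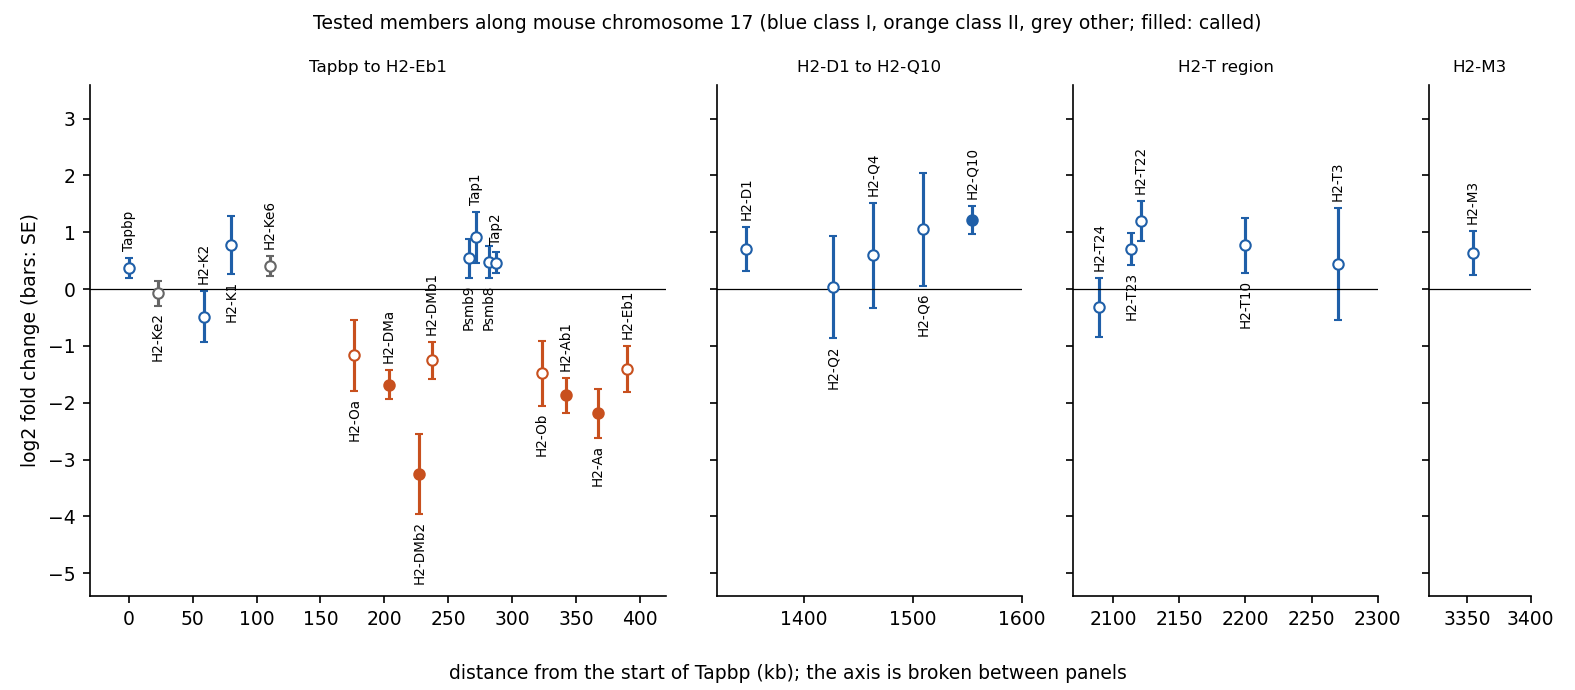
Log2 fold change of the tested members on chromosome 17 (y axis; bars are SE) by distance from the start of Tapbp in kb (x axis, broken between 4 panels). The class II genes lie below 0 on both sides of the group Psmb9, Tap1, Psmb8 and Tap2, which lies above 0.

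The promoters of class I and class II genes are known to share a set of short elements, among them the X2 and Y boxes, so the promoters of members that moved apart were set side by side. In the RefSeq promoter table (GRCm38.p6, 250 bases before to 50 after a start site), 28 member genes had an entry. The sequences below are the 150 bases before the start site, 5′ to 3′ on the gene's strand. Capitals mark matches on either strand to the Y box (CTGATTGG), to the core of the X2 box (TGACG), to the core of the interferon-stimulated response element (GAAA, any 2 bases, GAAA) or to the gamma-activated site (TTC, any 3 bases, GAA). H2-Aa (a called class II chain), H2-Eb1 (an uncalled class II chain), H2-D1 and H2-T23 (uncalled class I chains), H2-Q10 (the class I chain that rose) and B2m are shown.
H2-Aa, chr17:34287824-34287973, minus strand: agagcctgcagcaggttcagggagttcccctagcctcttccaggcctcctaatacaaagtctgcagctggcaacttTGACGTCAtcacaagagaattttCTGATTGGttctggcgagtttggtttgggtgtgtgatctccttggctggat
H2-Eb1, chr17:34305717-34305866, plus strand: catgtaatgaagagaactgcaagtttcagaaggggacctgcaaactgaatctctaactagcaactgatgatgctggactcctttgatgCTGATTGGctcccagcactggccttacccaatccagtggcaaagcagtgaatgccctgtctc
H2-D1, chr17:35262944-35263093, plus strand: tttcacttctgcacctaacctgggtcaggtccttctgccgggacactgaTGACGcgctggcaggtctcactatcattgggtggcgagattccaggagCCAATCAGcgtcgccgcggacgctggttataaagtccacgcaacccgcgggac
H2-T23, chr17:36032702-36032851, minus strand: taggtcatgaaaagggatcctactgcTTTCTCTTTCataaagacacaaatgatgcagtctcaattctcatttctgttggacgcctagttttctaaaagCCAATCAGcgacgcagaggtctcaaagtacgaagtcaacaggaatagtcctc
H2-Q10, chr17:35469939-35470088, plus strand: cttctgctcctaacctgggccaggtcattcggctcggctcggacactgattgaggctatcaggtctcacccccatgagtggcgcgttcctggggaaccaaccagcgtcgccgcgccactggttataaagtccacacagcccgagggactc
B2m, chr2:122147537-122147686, plus strand: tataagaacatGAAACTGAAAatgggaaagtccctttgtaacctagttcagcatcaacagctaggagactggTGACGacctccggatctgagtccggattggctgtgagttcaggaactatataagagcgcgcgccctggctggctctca

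The Y box letters were found in the promoters of 11 of the 28 member genes, and in 4.1% of all 32851 promoters of that length. They occurred in the class II chains H2-Aa and H2-Eb1 and in the class I chains H2-D1 and H2-T23, so the match did not divide the systems. The X2 core was found in 9 of 28 genes against 20.8% of all promoters, the interferon element in 3 (B2m, H2-T23 and H2-T22) against 3.44%, and the gamma-activated site in 3 against 8.3%. RefSeq and GENCODE place the starts of H2-D1, H2-T23 and B2m at different bases. The windows printed for H2-D1 and H2-T23 lie inside the GENCODE genes. The entries of Psmb9 and Tap1 overlap and share their matches. H2-Q10 held none of the 4 motifs in these exact letters. The search did not count near matches to the interferon element, such as TTTCACTTCT in the entries of H2-D1, H2-K1 and H2-Q10. It therefore does not show that these promoters lack such an element. Its stretch closest to the Y box match of H2-D1 agreed at 7 of 8 bases, with the substitution T5C (H2-D1 base first, positions counted from 1 at the 5′ end of the 8 bases as printed). A match is a string of letters in a window and says nothing of what binds there.

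Genes of the wider pathway were mostly not called, with exceptions on both sides. Of all tested genes, 3.94% were called lower and 0.639% higher. Of 15 class I loading and peptide trimming genes 0 were called by edgeR (2 at an unadjusted p below 0.05), and 0 by DESeq2 and by limma-voom, with a median log2 fold change of 0.13. The endoplasmic reticulum chaperone genes Hspa5 and Calr had 2894 ± 624 and 706 ± 42.6 CPM in the controls and 3137 ± 893 and 738 ± 229 CPM in CXCL12-deficient libraries. Of 6 tested class I-like genes outside the H2 set 3 rose, and 5 had log2 fold changes above 0. Procr had a lower mean and was not called (log2 fold change -1.78 ± 0.65, adjusted p = 0.18). Cd1d1, which presents lipids to NKT cells, had 239, 197 and 192 CPM against 377, 383 and 372 CPM (log2 fold change 0.85 ± 0.15, adjusted p = 0.016). Fcgrt, the neonatal Fc receptor, had 584, 580 and 429 CPM against 979, 872 and 1027 CPM (0.85 ± 0.18, adjusted p = 0.030). Hfe, a regulator of iron uptake, had 94.4, 86.7 and 68.1 CPM against 172, 158 and 138 CPM (0.91 ± 0.17, adjusted p = 0.020). These 3 genes separated the groups, and CXCL12-deficient replicate 3, low at most class I members, was not set apart from the other two at Cd1d1 and Fcgrt.

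Of 9 tested class II processing genes 2 fell, 5 had log2 fold changes above 0, and the median was 0.15. Ctsl and Ctsb were higher in every CXCL12-deficient library than in any control and were not called (edgeR adjusted p = 0.26 and 0.20). Ctss, the protease that trims the invariant chain, had 72.1, 83.6 and 94.1 CPM in the controls and 32.6, 22.3 and 21.98 CPM in CXCL12-deficient libraries (log2 fold change -1.70 ± 0.21, adjusted p = 0.0055). March1, a ubiquitin ligase that removes class II molecules from the surface, had 7.82, 7.07 and 12.1 CPM against 0.208, 1.35 and 0.133 CPM (adjusted p = 0.025). It passed the filter through the controls, and its CXCL12-deficient values are 5, 31 and 3 reads. Of 13 regulators of MHC genes 1 fell, where 3.94% of all tested genes were called lower. It was the blood cell factor Irf8, which went from 126 ± 21.4 to 41.0 ± 12.5 CPM (adjusted p = 0.011). Of 9 interferon receptor and kinase genes 0 were called by edgeR (1 at an unadjusted p below 0.05), by DESeq2 or by limma-voom (0 each). The interferon-gamma receptor genes Ifngr1 and Ifngr2 had 501 ± 41.9 and 253 ± 42.1 CPM in the controls and 617 ± 114 and 300 ± 38.0 CPM in CXCL12-deficient libraries. Of 6 tested co-stimulation genes 1 fell, Cd40, with 3.78, 5.81 and 7.18 CPM against 0.875, 1.003 and 0.888 CPM (adjusted p = 0.018). A single call in the regulator and co-stimulation lists says little about either list.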

How the data were processed

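RNA was measured in 3 control and 3 CXCL12-deficient libraries. Nextera XT libraries were made per the labels, and build mm10, TopHat2 2.0.13, Bowtie2 2.2.1 and HTSeq are among the names in the submitters' processing notes, which assign no roles. The annotation, the strand setting and the handling of multi-mapped reads, which matter for similar H2 chains, were not given in the sources used here. The authors deposited raw counts per gene, used for all main values, and regularized log2 values, used as an alternative. Another table, the same counts divided by size factors, was not used.

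Of 17131 entries, the separately listed Cxcl12 exons were summed, leaving 17128 genes. The labels carry no replicate numbers, so libraries were numbered in accession order. Counts were tested with the robust quasi-likelihood test of edgeR 4.0.16 in R 4.3.3 (TMM factors, filterByExpr with a minimum count of 10, Benjamini-Hochberg adjustment over 13926 genes, adjusted p below 0.05). CPM are TMM-scaled, and 1 read is worth 0.0357 to 0.0497 CPM. Alternatives were RLE and upper quartile factors, 2 other filters, no robust shrinkage, DESeq2 1.42.0, limma-voom and limma 3.58.1 on the log2 values, a stricter threshold, and leaving out each library. The regularized log2 table has 23 date-like gene names, which were left out. Gene positions and lengths come from GENCODE M21 (GRCm38), and promoters from RefSeq (GRCm38.p6). The fit was tested on simulated counts.

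The members and gene lists were chosen with earlier results of these data known. Values in every library are given for the genes the rule names individually, the classical chains, H2-DM and H2-O genes, the 4 most abundant non-classical class I chains and every other called member. From other pathway lists, called genes are named, or the 2 most abundant where none was called. Of the neutrophil and erythroid marker lists, few genes or none are named.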

Additional observations from a re-analysis of the deposited data

How the results depend on the processing

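The counts of called members kept their direction under the other scalings, filters, tools and refits: class I members called lower and class II members called higher were 0 in each. With DESeq2, 7 members were called lower, adding H2-Eb1 and H2-DMb1, and 2 were called higher, both class I (H2-Q10 and H2-T22). At an adjusted p below 0.01, 0 members were called lower and 0 higher. Leaving out each library gave 1 to 5 members called lower (1 to 5 in class II) and 0 to 3 called higher (0 to 3 in class I). The fits without control replicate 2 or 3 also called the fewest genes of the whole table, 160 and 74 against 637. The Cd74 to B2m difference ranged from -2.88 to -1.85 when a library was left out. The sign of 5 uncalled genes turned when a library was left out, with log2 fold changes from -0.69 to 1.22 for H2-Q2 (-0.42, -0.24 and -0.69 where it turned), -0.88 to 0.11 for H2-T24, -0.015 to 0.84 for H2-T3, -0.35 to 0.86 for Nlrc5 (-0.045, -0.073 and -0.35) and -0.28 to 0.042 for H2-Ke2 (0.025 and 0.042). The cause was not tested. No scaling turned a sign. No paired analysis was possible because the labels give no replicate numbers. Depth limits the values of H2-DMb2, H2-Oa, Ciita and the untested entries, which rest on few reads.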
